A study of Mus musculus with 12 samples.

Results

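The genes described here are the neighbours of the *Mirc11* microRNA cluster on mouse chromosome 8, the cluster that encodes miR-23a, miR-27a and miR-24-2 and is deleted in *Mirc11-/-* mice. They were chosen by name, as 51 protein-coding genes on either side of the cluster, and 50 of them are among the 23863 genes of the expression table. *Stx10* is not in the table and was dropped. All 50 were placed on chromosome 8, 14 on the centromere side of the cluster and 36 on the telomere side, between the 22nd coding gene before it and the 62nd after it. In that stretch lie 84 annotated coding genes, so the list does not hold every neighbour. Of the 50 members, 48 reached a mean of at least 1 FPKM (fragments counted relative to transcript length and library size) over the 12 libraries and were tested, and these 48 also reached it over the 6 wildtype libraries alone. *Palm3* and *Podnl1* did not, with 0 to 0.0739 and 0 to 0.0936 FPKM per library.

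The 12 RNA-seq libraries came from bone marrow-derived macrophages (BMDM) of C57BL/6 mice aged 6 to 8 weeks, wildtype or *Mirc11-/-* (also named mirn23a-/-). Marrow was cultured for 7 days in medium conditioned by L929 cells, a fibroblast line that secretes M-CSF. The macrophages were then polarized for 24 h, either to M1 with 100 ng/ml LPS and interferon gamma or to M2 with 20 ng/ml IL-4 and 20 ng/ml IL-13. There were 3 libraries in each of the 4 groups, named by genotype (Wt or Ako), a number and the polarization. For interferon gamma the protocol gives 50 ng/ml and the treatment label 10 ng/ml. Neither the construction of the deleted allele nor the breeding of the mice is given in the sources used here. The labels do not state that the libraries of a group came from separate animals, so the p-values measure the spread between these samples, which may be technical. The numbers differ between the genotypes, so an effect of genotype and of anything the numbers mark cannot be told apart.

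Title and treatment label name opposite polarizations for 6 of the 12 libraries, and the groups follow the titles. *Nos2*, whose product makes nitric oxide in M1 macrophages, ranged from 938 to 1630 FPKM over the libraries titled M1 and from 0.802 to 2.26 FPKM over those titled M2. *Mrc1*, the mannose receptor of M2 macrophages, lay between 0.123 and 0.403 FPKM in the former and between 230 and 301 FPKM in the latter. For *Nos2* in M1, no *Mirc11-/-* library was above 1083 FPKM and no wildtype library below 1379 FPKM. The sum of 7 M1 markers in M1 was 5121 to 5342 FPKM for wildtype but 4425 to 4915 FPKM for *Mirc11-/-* libraries. The sum of 6 M2 markers in M2 was 468 to 515 FPKM for wildtype but 651 to 732 FPKM for *Mirc11-/-* libraries. *Tnf* in M1 and *Egr2* in M2 differed the opposite way. The deleted genes could not be checked, because *Mir23a* and *Mir24-2* were listed at 0 in all 12 libraries and *Mir27a* in 11, Wt2261M1 being the exception. Relative depth ranged from 0.795 to 1.265 times that of Wt2260M1. The summed level of 9 macrophage markers was 10861 to 13486 FPKM. A neutrophil list of 8 genes, led by *S100a8*, with *Elane* and *Retnlg* at 0 in every M1 library, had sums of 42.2 to 74.7 FPKM in the wildtype M1 libraries, 28.4 to 32.2 FPKM in the *Mirc11-/-* M1 libraries, and 1.84 to 6.14 and 1.40 to 2.55 FPKM in M2. Endothelial markers, chiefly *Pecam1* and *Kdr*, were at 8.60 to 11 and 13.1 to 15.3 FPKM in M1 and at 5.06 to 7.16 and 7.25 to 9.10 FPKM in M2. A T and NK cell list of 7 genes, chiefly *Cd4*, was at 1.96 to 2.66 and 1.16 to 2.25 FPKM in M1 and at 11.3 to 13 and 6.92 to 9.77 FPKM in M2. B cell, dendritic cell, mast cell, erythroid and fibroblast lists each stayed below 2 FPKM in every library. The part of these differences in the values below was not tested.

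A microRNA guides the silencing machinery to messenger RNAs through its seed, bases 2 to 8 of the mature strand, which pairs with sites in 3' UTRs. Loss of a microRNA can therefore raise the level of messages that carry its sites, wherever their genes lie. Genes next to a deleted cluster differ from other genes in that they lie on the chromosome segment that carries the deletion and are inherited with it. In macrophages the cluster is known for its effect on inflammatory polarization. The neighbours include enzymes of metabolism and of nucleic acids, transcription factors, chaperones, trafficking proteins, ubiquitin ligase subunits, and receptors and channels.

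The 3 mature microRNAs are shown because they define the sites searched for in the members. Their 3 seeds, in capitals, all differ, although those of miR-23a and miR-27a share their first 5 bases. The sequences are from RefSeq for build GRCm38.p6, on the plus strand, at chr8:84208563-84208583, chr8:84208727-84208747 and chr8:84208875-84208896 in the order listed.
miR-23a-3p: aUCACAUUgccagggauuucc
miR-27a-3p: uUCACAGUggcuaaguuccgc
miR-24-3p: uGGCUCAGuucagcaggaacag

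A site was a match to bases 2 to 8 in the longest annotated 3' UTR. Of the 48 tested members 16 held at least 1 site (33.3%), against 3923 of 9782 tested genes with a 3' UTR (40.1%). The members' 3' UTRs were shorter, with a median of 760 bases against 1136.5. Sites for miR-23a and for miR-27a were in 6 members each, and sites for miR-24 were in 9. Among the 19 members that differed between genotypes in M1 or M2, described below, 8 held a site, and among the other 29 tested members 8 did. Of the 8 that differed, *Cacna1a* was called higher in *Mirc11-/-* cells in both polarizations, *Nacc1* in M1 alone, and *Ddx39* and *N4bp1* in M2 alone. In M1, *Ddx39* and *N4bp1* lay at -0.05 and -0.10 without passing. *Mri1*, *Hook2*, *Man2b1* and *Gpt2* were called lower in both. The median *Mirc11-/-* minus wildtype difference of members with a site was -0.09 in M1 and -0.04 in M2 on the log2 scale, and that of members without was -0.02 in both. The sites of 5 of these members are shown, with the match to the seed in capitals. Those for *Cacna1a*, *Gpt2*, *Nacc1* and *N4bp1* are followed by an a, as is the one for *Mri1*, which makes each an 8mer.
*Cacna1a*, miR-27a: cgtgggcttgggACTGTGAaatattgcatg
*Gpt2*, miR-27a: aagcattgcattACTGTGAaggaagtagcc
*Nacc1*, miR-23a: gcggtgttgggaAATGTGAaccctgagagt
*N4bp1*, miR-23a: tttgtagattatAATGTGAaatataattct
*Mri1*, miR-24: tgcactttacccCTGAGCCatgttcccagc

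The *Cacna1a* site starts at base 474 of a 3' UTR of 538 bases. *N4bp1* held 4 sites, more than any other member, with 1 for miR-23a, 1 for miR-27a and 2 for miR-24. A match is a description of the letters and not evidence that the site is used.

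The first question was whether neighbours of the cluster differed between *Mirc11-/-* and wildtype macrophages. Many did, in both directions. Differences are in log2(FPKM + 1), *Mirc11-/-* minus wildtype, with a standard error (SE), and adjusted p-values are from limma with Benjamini-Hochberg adjustment over all tested genes; a gene under 0.05 passed, or was called. In M1, 14 of the 48 tested members passed (29.2%), 6 of them raised and 8 reduced in *Mirc11-/-* cells, against 13.9% of all 10137 tested genes, of which 5.99% were raised and 7.96% reduced. In M2, 17 members passed (35.4%), 7 raised and 10 reduced, against 4.59% of all genes, with 2.5% raised and 2.09% reduced. The 3 libraries of 1 genotype lay entirely on 1 side of the other 3 for 25 members in M1 (52.1%; 31.5% of all genes) and for 27 in M2 (56.2%; 23.6% of all genes). The median difference over the members was -0.04 in M1 and -0.02 in M2, close to the -0.02 and 0.00 of all tested genes, whereas the median of its absolute size was 0.12 against 0.09 in M1 and 0.16 against 0.07 in M2.

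**Figure D1:**
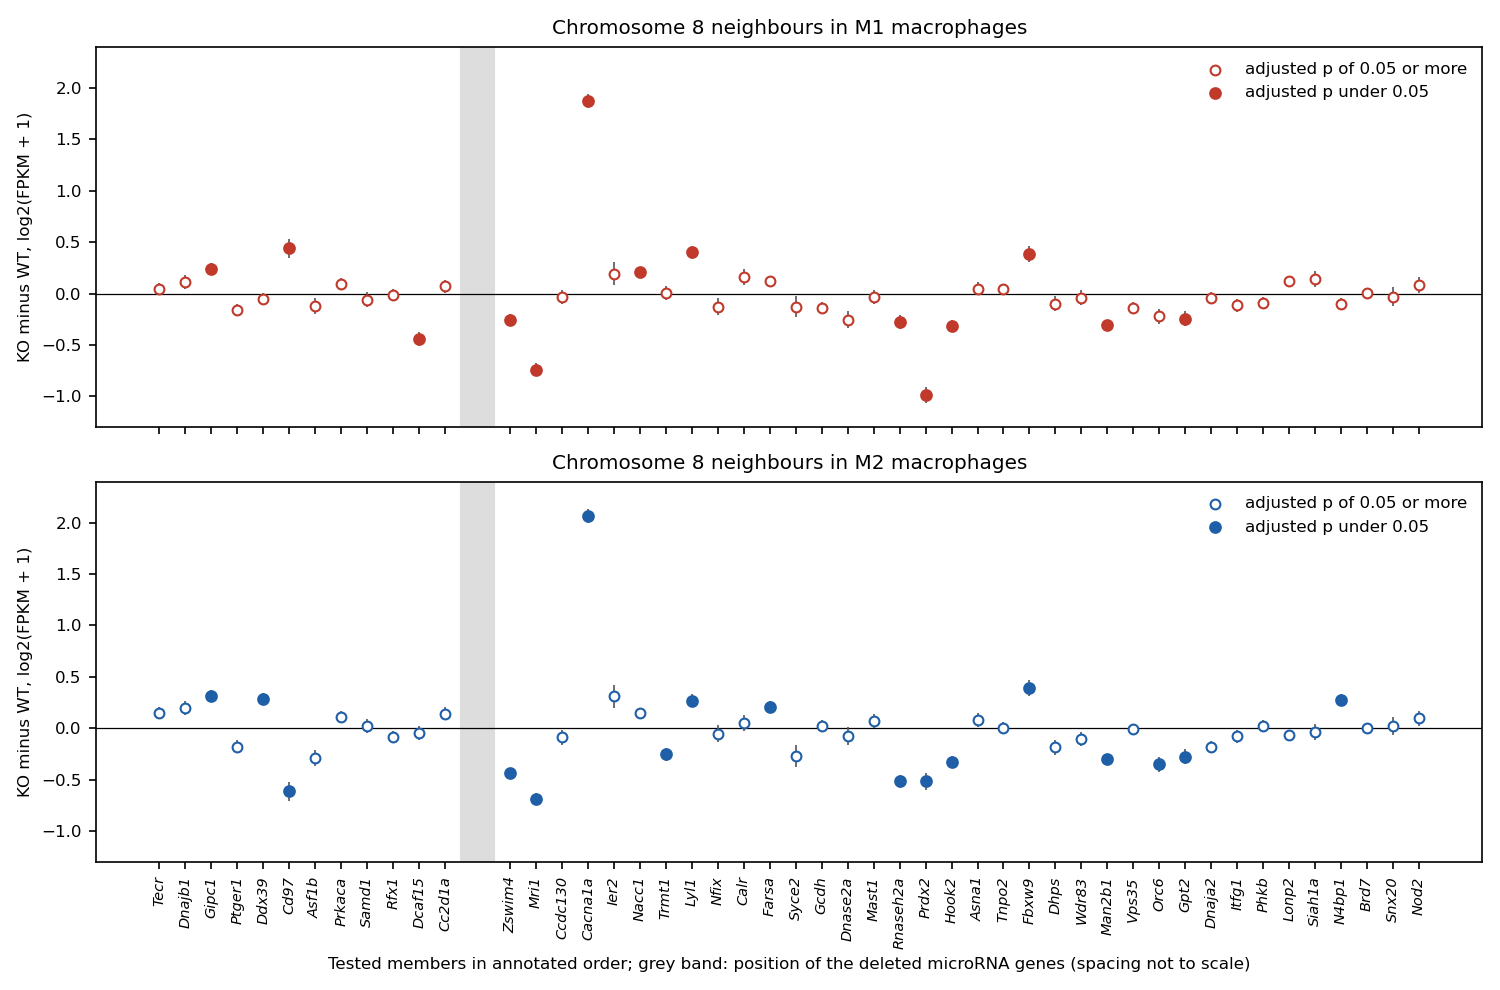
Difference between *Mirc11-/-* (KO) and wildtype (WT) macrophages for the 48 tested members in annotated order along chromosome 8, in log2(FPKM + 1), for M1 (top) and M2 (bottom). Points are fitted differences and bars standard errors, filled points have an adjusted p under 0.05, and the grey band marks the deleted microRNA genes. *Cacna1a* stands highest in both, at 1.88 and 2.06, and members that were higher or lower lie on both sides of the cluster.

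These counts differed between fits, and the cause was not tested. The 6 libraries whose title and treatment label agree hold only Wt2260M1 and Wt2260M2 as wildtype libraries, so their calls are not counted here. Grouping by the treatment label, which mixes libraries titled M1 and M2 in every group, left 0 members in each polarization (6 and 8 at an unadjusted limma p under 0.05). Of all 10137 tested genes, 2 passed in each polarization under that grouping (337 and 524 at the same unadjusted p). The M2 count fell to 10 without Ako2271M2, 10 without Ako2272M2, 11 without Wt2260M2, 11 without Wt2261M2 and 10 in a fit to the M2 libraries alone, in which 2.21%, 2.48%, 2.55%, 1.98% and 2.69% of all genes passed. The M2 fit alone lost *Ddx39*, *Lyl1*, *Farsa*, *Hook2*, *Orc6*, *Gpt2* and *N4bp1*, and a fit to the M1 libraries alone lost *Gipc1* and *Zswim4*.

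Among receptors, channels, kinases and innate sensors, 2 of 7 tested members rose in M1, and 1 rose and 1 fell in M2. The counts by role here and below stand beside 13.9% of all tested genes called in M1 and 4.59% in M2. Differences between roles were not tested. *Cacna1a* encodes the pore-forming subunit of the P/Q-type voltage-gated calcium channel, known chiefly from neurons. Its level in wildtype M1 libraries was 0.196, 0.312 and 0.352 FPKM, and in *Mirc11-/-* M1 libraries it was 3.92, 3.54 and 3.7 FPKM. In M2 it was 2.38, 2.42 and 2.23 FPKM in wildtype and 13.6, 11.7 and 13.6 FPKM in *Mirc11-/-* cells. The genotypes were far apart in each polarization, and *Mirc11-/-* M1 cells lay above wildtype M2 cells although M1 levels were the lower ones within each genotype. The mean FPKM was 13-fold higher in *Mirc11-/-* cells in M1 and 5.55-fold higher in M2. On the log2 scale the rise was 1.88 (SE 0.07, adjusted p = 4.7e-08) in M1 and 2.06 (SE 0.07, adjusted p = 1.6e-08) in M2, the 4th and 5th largest increases among the 10137 tested genes. *Cacna1a* passed in both polarizations without any 1 of the 12 libraries.

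*Cd97* (*Adgre5*), an adhesion G protein-coupled receptor of leukocytes that binds CD55, moved in opposite directions. Wildtype M1 libraries held 4.56, 5.28 and 5.04 FPKM and *Mirc11-/-* M1 libraries 6.84, 6.80 and 7.65 FPKM. Wildtype M2 libraries held 25.9, 32.4 and 27.8 FPKM and *Mirc11-/-* M2 libraries 18.9, 20.2 and 16.0 FPKM. The genotypes did not overlap in either polarization, with *Mirc11-/-* cells above wildtype in M1 and below it in M2. The difference was 0.44 (SE 0.09, adjusted p = 0.0095) in M1 and -0.62 (SE 0.09, adjusted p = 0.0033) in M2, and the difference between these effects was 1.06 (SE 0.13, adjusted p = 0.0028, limma). *Cd97* was the only member called in both polarizations with opposite signs, against 0.109% of all tested genes. It overlaps *Ddx39* by 3660 bases in the annotation, and the strand setting of the counting is not given in the sources used here, so reads of the shared stretch cannot be told apart.

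The other receptors and kinases did not pass between genotypes in either polarization. *Nod2*, the cytosolic sensor of bacterial muramyl dipeptide, differed by 0.08 (SE 0.08) in M1 and 0.10 (SE 0.08) in M2. *Prkaca*, the catalytic subunit of protein kinase A, differed by 0.10 and 0.11 (SE 0.05 each).

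**Figure D2:**
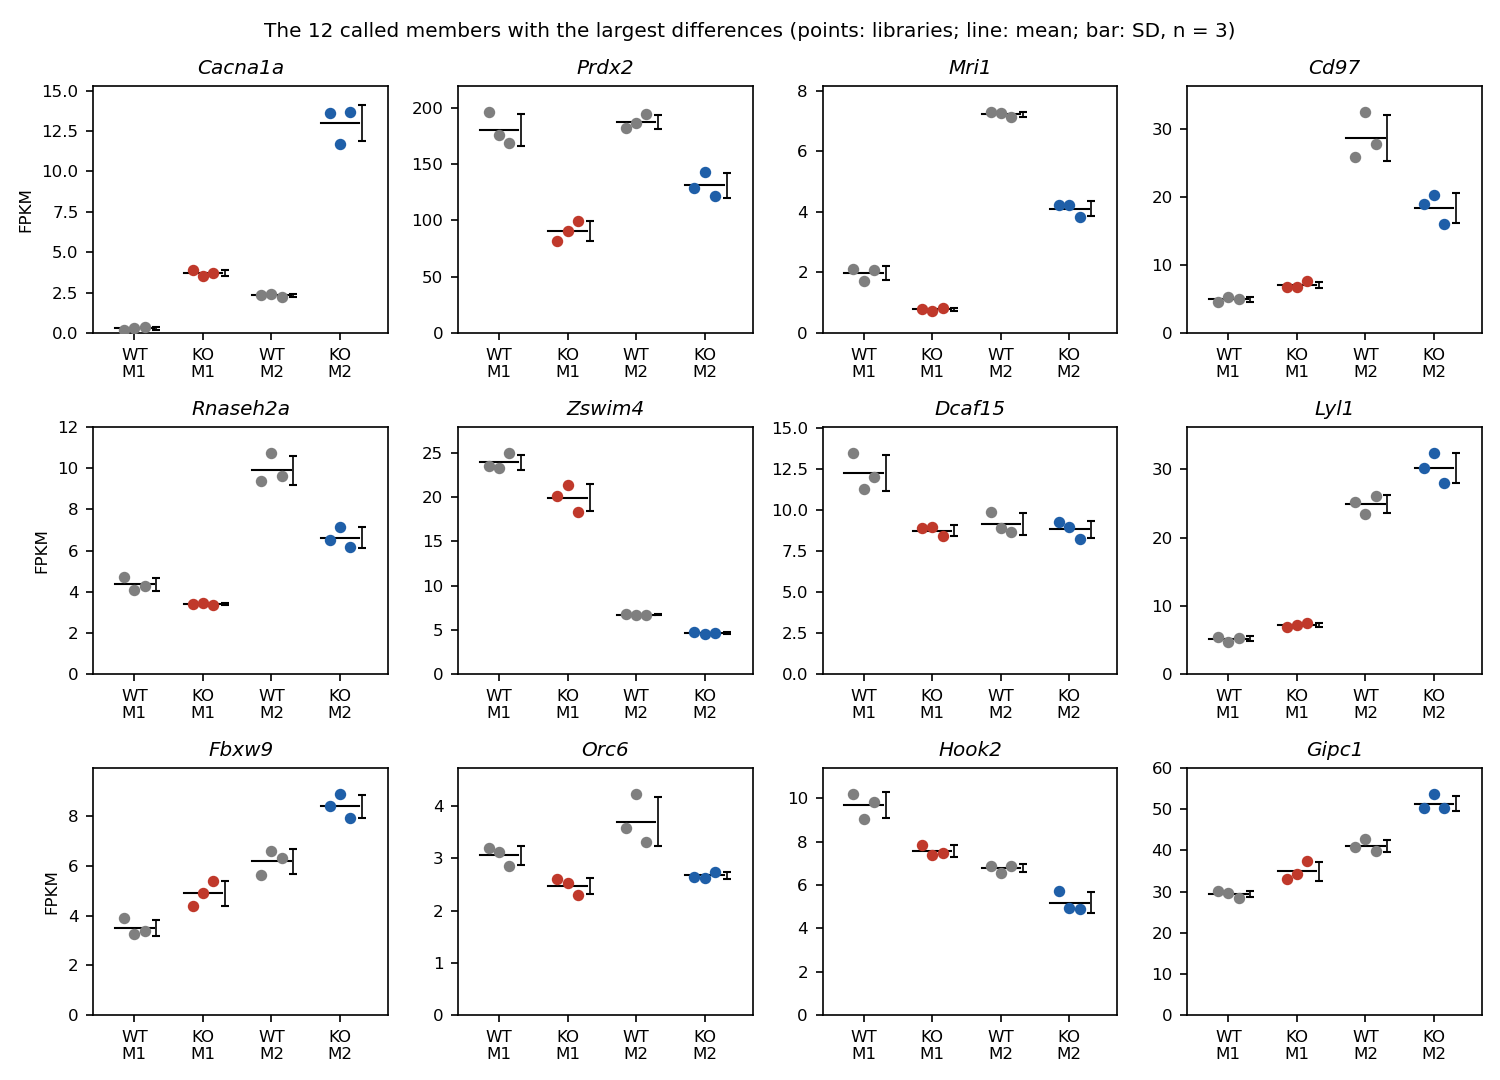
FPKM of the 12 called members with the largest differences, one panel per gene, in wildtype (WT, grey) and *Mirc11-/-* (KO) libraries of M1 (red) and M2 (blue). Points are libraries, lines group means and bars the SD of 3 libraries. The genotypes are separate in both polarizations for every gene but *Dcaf15*, which overlaps in M2, and *Cd97* changes direction.

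Metabolic enzymes gave 4 of 9 tested members that fell in M1 and the same 4 in M2, *Prdx2*, *Mri1*, *Man2b1* and *Gpt2*, and none that rose. Of all tested genes 7.96% were reduced in M1 and 2.09% in M2. *Prdx2*, a peroxiredoxin that reduces hydrogen peroxide, was at 196, 176 and 169 FPKM in wildtype and at 81.8, 90.6 and 99.0 FPKM in *Mirc11-/-* M1 libraries. In M2 it was at 182, 187 and 194 FPKM in wildtype and at 129, 143 and 121 FPKM in *Mirc11-/-* libraries. All *Mirc11-/-* libraries were thus below all wildtype libraries, and in M1 the mean was 1.99-fold lower. *Prdx2* fell by 0.99 (SE 0.08, adjusted p = 2.8e-05) in M1 and by 0.52 (SE 0.08, adjusted p = 0.0042) in M2, and the difference of -0.47 between these effects did not pass (adjusted p = 0.069).

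*Mri1* encodes methylthioribose-1-phosphate isomerase of the methionine salvage pathway and is the third coding gene on the telomere side of the cluster. It was at 2.12, 1.73 and 2.10 FPKM in wildtype and at 0.780, 0.735 and 0.838 FPKM in *Mirc11-/-* M1 libraries. The M2 values were 7.29, 7.26 and 7.13 FPKM in wildtype and 4.24, 4.24 and 3.82 FPKM in *Mirc11-/-* libraries. Each *Mirc11-/-* group lay below its wildtype group, with a difference of -0.74 (SE 0.06, adjusted p = 2.8e-05) in M1 and -0.69 (SE 0.06, adjusted p = 8.7e-05) in M2. *Mri1* passed in both without any 1 of the 12 libraries, as *Cacna1a* did. *Mri1* shares 1136 annotated bases with *D8Ertd738e*, which was at 109 ± 3.9 FPKM in wildtype and 87.2 ± 8.6 FPKM in *Mirc11-/-* M1 cells (SD, n = 3; difference -0.32, limma adjusted p = 0.020) and differed by -0.16 in M2 (adjusted p = 0.29), so its reads may enter the value of *Mri1*.

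*Man2b1*, the lysosomal alpha-mannosidase, fell from 78.9 ± 2.3 to 63.6 ± 2.8 FPKM in M1 and from 284 ± 1.7 to 231 ± 2.7 FPKM in M2 (SD, n = 3). Its fall was of like size in both, -0.31 (SE 0.05, adjusted p = 0.0016) and -0.30 (SE 0.05, adjusted p = 0.0035) by limma. *Gpt2*, a mitochondrial alanine aminotransferase, fell by 0.24 (SE 0.07, adjusted p = 0.042) and 0.28 (SE 0.07, adjusted p = 0.049), close to the threshold. Its M1 call was lost with Wt2260M1, Wt2261M1, Ako2271M1, Ako2272M1 or Wt2262M2 left out (adjusted p up to 0.13) and its M2 call with any library but Wt2262M1 and Ako2273M2 left out (up to 0.19). The M1 call was also lost with no filter on low values (0.063) and under quantile normalization (0.17), and the M2 call with a pseudocount of 0.1 (0.089), with no filter (0.062), under median-of-ratios scaling (0.051) and under quantile normalization (0.058). *Tecr*, *Gcdh*, *Phkb*, *Lonp2* and *Dhps*, the remaining metabolic members, lay between -0.19 and 0.15 in both polarizations.

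Enzymes of DNA and RNA gave 1 of 8 tested members that fell in M1, and 2 that rose and 3 that fell in M2. *Rnaseh2a*, the catalytic subunit of the ribonuclease that removes ribonucleotides from DNA, fell in both. Wildtype M1 libraries held 4.72, 4.08 and 4.26 FPKM and *Mirc11-/-* M1 libraries 3.41, 3.45 and 3.38 FPKM. Wildtype M2 libraries held 9.40, 10.7 and 9.60 FPKM and *Mirc11-/-* M2 libraries 6.53, 7.16 and 6.18 FPKM. The genotypes were apart in both, by -0.28 (SE 0.06, adjusted p = 0.015) in M1 and -0.52 (SE 0.06, adjusted p = 0.00088) in M2, and the M1 call was lost without Wt2260M1 (adjusted p = 0.059) and under quantile normalization (0.083). *Orc6*, a subunit of the origin recognition complex, was at 3.57, 4.22 and 3.32 FPKM in wildtype and at 2.65, 2.63 and 2.74 FPKM in *Mirc11-/-* M2 libraries. That fall was 0.35 (SE 0.07, adjusted p = 0.015), while in M1 values of 3.20, 3.12 and 2.85 against 2.60, 2.53 and 2.3 FPKM were also separate but did not pass (-0.22, SE 0.07, adjusted p = 0.059). The M2 call was lost without Wt2261M2, Ako2271M2 or Ako2272M2 (up to 0.060).

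The remaining calls of this group were small and in M2 alone, although no difference between the polarizations passed for them. *Ddx39* (*Ddx39a*), an RNA helicase of mRNA export, rose from 26.6 ± 1.1 to 32.7 ± 1.9 FPKM in M2 (SD, n = 3; 0.29, SE 0.06, limma adjusted p = 0.014) and differed by -0.05 (SE 0.06) in M1, and the difference of -0.34 between its effects had an adjusted p of 0.055. Without Wt2260M2 or Ako2272M2 the M2 call was lost (adjusted p up to 0.064). *Farsa*, the alpha subunit of cytosolic phenylalanyl-tRNA synthetase, rose by 0.21 (SE 0.05, adjusted p = 0.045) in M2. *Trmt1*, a tRNA methyltransferase, fell by 0.26 (SE 0.06, adjusted p = 0.043) in M2. The call on *Farsa* held only when the library left out was Wt2260M1, Wt2261M1, Ako2273M1 or Ako2273M2 (adjusted p otherwise up to 0.15), and that on *Trmt1* only when it was Wt2261M1 or Ako2273M1 (otherwise up to 0.14). The call on *Trmt1* was also lost with a pseudocount of 0.1 (adjusted p = 0.055) and with no filter (0.061). *Trmt1* overlaps *Nacc1* in the annotation. *Dnase2a*, the lysosomal DNase, lay at -0.25 (SE 0.08, adjusted p = 0.067) in M1 with genotypes that did not overlap.

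Transcription and chromatin factors gave 2 of 10 tested members that rose and 1 that fell in M1, and 1 that rose and 1 that fell in M2. *Lyl1*, a helix-loop-helix factor of blood cells, rose. It was at 5.46, 4.76 and 5.30 FPKM in wildtype and at 6.84, 7.13 and 7.45 FPKM in *Mirc11-/-* M1 libraries, and at 25.2, 23.5 and 26 against 30.2, 32.3 and 28 FPKM in M2. The *Mirc11-/-* libraries were the higher ones throughout, by 0.40 (SE 0.06, adjusted p = 0.0022) in M1 and 0.27 (SE 0.06, adjusted p = 0.038) in M2, the M2 call being lost without Ako2272M1, Wt2260M2, Wt2261M2, Ako2271M2 or Ako2272M2 (adjusted p up to 0.16) and with no filter (0.054). *Zswim4*, a SWIM zinc finger gene and the nearest coding gene on the telomere side, was at 23.5, 23.3 and 24.9 FPKM in wildtype and at 20.2, 21.4 and 18.3 FPKM in *Mirc11-/-* M1 libraries. In M2 it was at 6.76, 6.65 and 6.67 FPKM in wildtype and at 4.76, 4.58 and 4.65 FPKM in *Mirc11-/-* libraries. *Mirc11-/-* cells were lower in both, with differences of -0.25 (SE 0.05, adjusted p = 0.0093) and -0.44 (SE 0.05, adjusted p = 0.00081). *Nacc1*, a BTB domain transcriptional repressor, rose by 0.21 (SE 0.04, adjusted p = 0.0052) in M1 and lay at 0.14 (SE 0.04, adjusted p = 0.068) in M2, with genotypes that did not overlap in either.

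Ubiquitin ligase genes and related genes gave 1 of 4 tested members that rose and 1 that fell in M1, and 2 that rose in M2. *Fbxw9*, an F-box protein that selects substrates for ubiquitin ligation, rose. Its levels were 3.89, 3.28 and 3.37 against 4.38, 4.92 and 5.39 FPKM in M1 and 5.63, 6.61 and 6.32 against 8.40, 8.88 and 7.95 FPKM in M2, wildtype first. Wildtype libraries lay below *Mirc11-/-* libraries in both, and the rise was 0.39 (SE 0.08) in each, with adjusted p = 0.0073 in M1 and 0.015 in M2, where it was up to 0.066 without Wt2260M2, Ako2271M2 or Ako2272M2. *Dcaf15*, a substrate receptor of CUL4 ubiquitin ligases and the fifth coding gene on the centromere side, was at 13.5, 11.3 and 12 FPKM in wildtype and at 8.88, 8.98 and 8.40 FPKM in *Mirc11-/-* M1 libraries. In M2 the genotypes overlapped, at 9.89, 8.89 and 8.65 against 9.25, 8.95 and 8.26 FPKM. *Dcaf15* fell by 0.44 (SE 0.07, adjusted p = 0.0018) in M1 and differed by -0.05 in M2 (95% interval -0.20 to 0.10), and the difference between these effects of -0.39 had an adjusted p of 0.067.

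*N4bp1*, a ubiquitin-binding protein that restrains cytokine production after Toll-like receptor signals, was at 44.5, 45.5 and 47.8 FPKM in wildtype and at 44.2, 43.0 and 41.3 FPKM in *Mirc11-/-* M1 libraries. In M2 it was at 19.2, 18.3 and 19.1 FPKM in wildtype and at 24.2, 21.1 and 23.7 FPKM in *Mirc11-/-* libraries. The *Mirc11-/-* libraries were thus just below wildtype in M1 (-0.10, SE 0.06, adjusted p = 0.29) and above it in M2 (0.27, SE 0.06, adjusted p = 0.016). The difference between these effects was -0.37 (SE 0.08, adjusted p = 0.035), but this call held only when the library left out was Ako2272M2 (otherwise up to 0.098) and was lost under median-of-ratios scaling (0.051) and with the replicate block on the title number (0.068). The M2 call was lost without Wt2261M2, Ako2271M2 or Ako2273M2 (up to 0.078).

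Of the trafficking genes, 1 of 5 tested members rose and 1 fell in each polarization. *Gipc1*, a PDZ domain adaptor of endocytic transport, was at 30.1, 29.6 and 28.5 against 33.0, 34.3 and 37.5 FPKM in M1 and at 40.7, 42.8 and 39.7 against 50.3, 53.6 and 50.3 FPKM in M2, wildtype first. It was higher in every *Mirc11-/-* library, by 0.24 (SE 0.05, adjusted p = 0.013) and 0.32 (SE 0.05, adjusted p = 0.0074). *Hook2*, a microtubule-linked cargo adaptor, was at 10.2, 9.05 and 9.84 against 7.87, 7.36 and 7.49 FPKM in M1 and at 6.89, 6.55 and 6.88 against 5.74, 4.92 and 4.91 FPKM in M2. It was lower in every *Mirc11-/-* library, with differences of -0.32 (SE 0.06, adjusted p = 0.0054) and -0.33 (SE 0.06, adjusted p = 0.0096). *Tnpo2*, a nuclear import receptor, did not pass, with a 95% interval of -0.08 to 0.16 in M1 and -0.11 to 0.12 in M2.

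None of the 4 chaperone and membrane insertion genes passed limma in either polarization (0 in M1 and 2 in M2 at an unadjusted p under 0.05). *Calr*, the endoplasmic reticulum chaperone calreticulin and the most abundant member, was at 507 ± 34 and 568 ± 29 FPKM in wildtype and *Mirc11-/-* M1 cells and at 559 ± 54 and 578 ± 13 FPKM in M2 (SD, n = 3). Its difference was 0.17 (SE 0.08, adjusted p = 0.19) in M1 and 0.05 (SE 0.08, adjusted p = 0.79) in M2. *Syce2*, a meiosis gene, did not pass either.

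The second question was whether the differences agreed in sign between M1 and M2, which share no libraries. Within each genotype the M1 and M2 libraries share title numbers. It is not known here whether these mark the same animals, so the differences in M1 and in M2 may not be independent. Of the 48 tested members, 37 had the same sign in both (77.1%), compared with 6576 of all 10137 tested genes (64.9%). Counted with the test, 12 members passed in both, 2 in M1 alone (*Dcaf15*, *Nacc1*) and 5 in M2 alone (*Ddx39*, *Trmt1*, *Farsa*, *Orc6*, *N4bp1*). Of the 12, 11 had the same direction (22.9% of members, against 2.32% of all tested genes), with 4 higher (*Cacna1a*, *Gipc1*, *Lyl1*, *Fbxw9*) and 7 lower (*Prdx2*, *Mri1*, *Rnaseh2a*, *Zswim4*, *Hook2*, *Man2b1*, *Gpt2*), and *Cd97* was the exception. Of these 11, *Lyl1*, *Fbxw9*, *Rnaseh2a* and *Gpt2* lost a call in at least 1 polarization when single libraries were left out. Over all members, 12 of 14 calls in M1 and 9 of 17 in M2 held without any 1 library. The difference between the effects passed for *Cd97* and *N4bp1*, 2 of 48, with 1.85% of all genes passing. The 29 members that passed in neither lay between -0.25 and 0.19 in M1 and between -0.29 and 0.31 in M2, and 22 of them had the same sign in both.

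**Figure D3:**
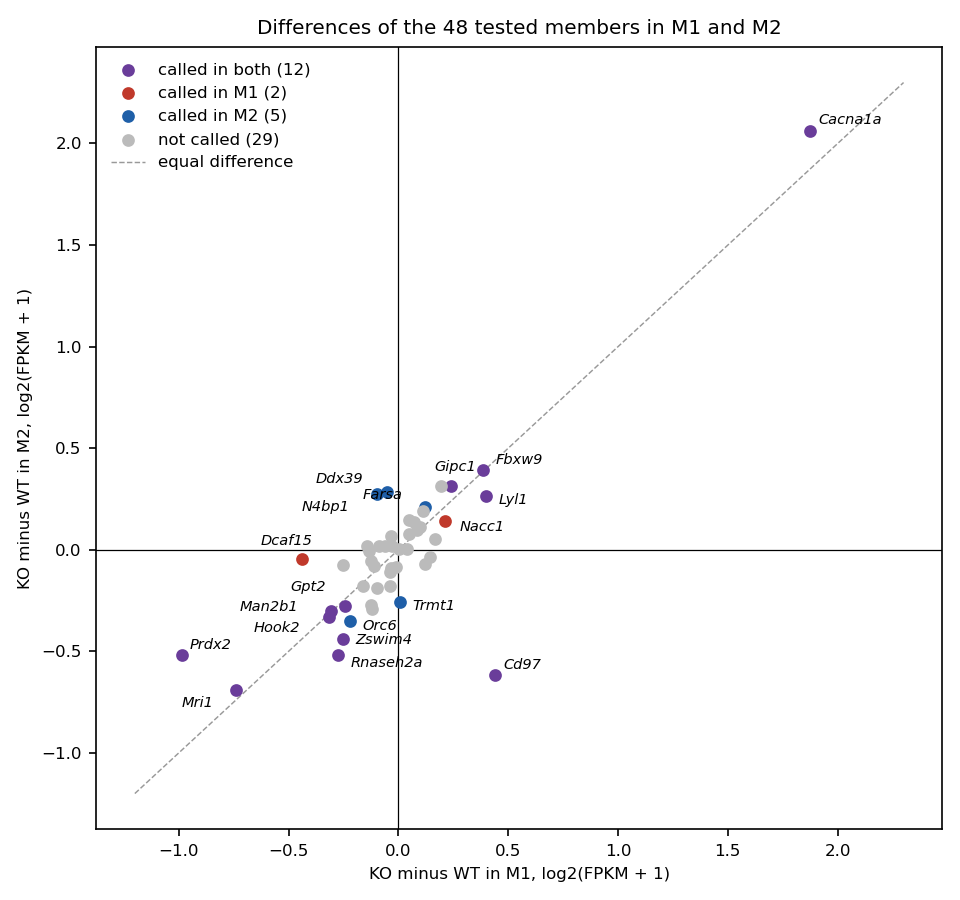
Difference between *Mirc11-/-* (KO) and wildtype (WT) cells in M1 (horizontal) against M2 (vertical) for the 48 tested members, in log2(FPKM + 1), with the dashed line marking equal differences. Purple points passed in both polarizations (12), red in M1 alone (2), blue in M2 alone (5) and grey in neither (29). Most points, 37 of 48, have the same sign on both axes, and *Cd97* lies apart at the lower right.

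Of the 12 tested members within 10 coding genes of the cluster on either side, 7 passed in at least 1 polarization (58.3%), and of the 36 farther away 12 did (33.3%), against 16.1% of all tested genes, and this difference between near and far members was not tested. On the telomere side *Zswim4*, the nearest, and *Mri1*, the third, were lower in *Mirc11-/-* cells and *Cacna1a*, the fifth, was higher. Between them *Ccdc130*, a splicing-related gene, lay at -0.03 in M1 (95% interval -0.19 to 0.12) and -0.09 in M2 (-0.25 to 0.06). On the centromere side the 3 nearest tested members were *Cc2d1a*, *Dcaf15* and *Rfx1*. *Cc2d1a*, a regulator of signalling and transcription, lay at 0.07 in M1 (95% interval -0.07 to 0.21) and 0.14 in M2 (0.0017 to 0.28; adjusted p = 0.26 by limma), where the genotypes did not overlap, and the winged-helix factor gene *Rfx1* at -0.01 (-0.14 to 0.12) and -0.09 (-0.22 to 0.04). On the centromere side 4 of 12 tested members passed in at least 1 polarization (33.3%), and on the telomere side 15 of 36 did (41.7%), against the same 16.1%.

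All tested genes of chromosome 8 were then counted by their distance from the cluster, in annotated coding genes, as a description with no test. Within 25 coding genes on either side, 14 of 39 tested genes passed in M1 (35.9%) and 17 in M2 (43.6%). From 26 to 50 coding genes away, 8 of 32 passed in M1 (25%) and 7 in M2 (21.9%), and beyond 200, 54 of 306 (17.6%) and 17 (5.56%). On other chromosomes, 13.5% of 9537 tested genes passed in M1 and 4.10% in M2. The shares did not fall evenly with distance. From 51 to 100 coding genes away on the centromere side, outside the stretch of the members, 20 of 30 tested genes passed in M1 (66.7%) and 12 in M2 (40.0%), more than in the nearest bin of that side, which held only 16 tested genes (25% and 37.5%). The same bin on the telomere side gave 7 of 26 (26.9%) in M1 and 3 (11.5%) in M2. Inside the stretch of the members, 14 further tested genes of the table are not on the list, and 4 passed in M1 and 4 in M2 (28.6% each).

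**Figure D4:**
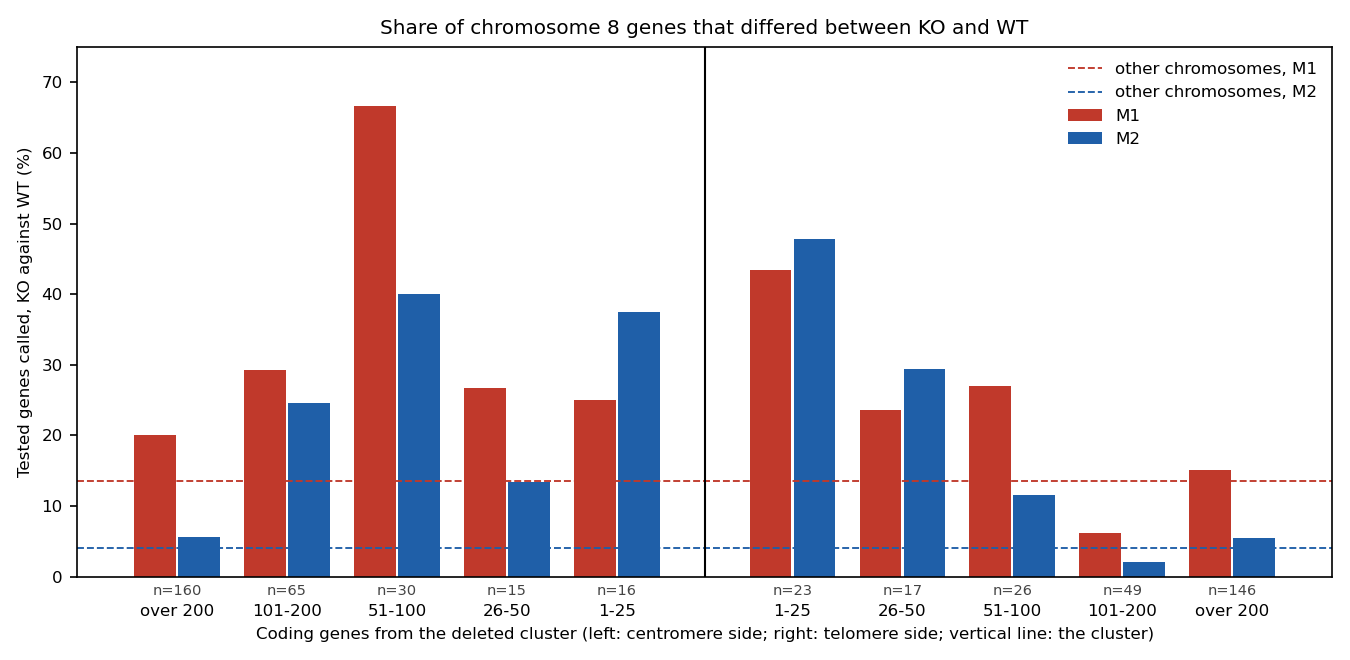
Share of tested chromosome 8 genes, in percent, that passed for *Mirc11-/-* (KO) against wildtype (WT) in M1 (red) and M2 (blue), by distance from the cluster in coding genes on the centromere (left) and telomere (right) side. Dashed lines give the shares on other chromosomes, 13.5% and 4.10%, and n is the number of tested genes in a bin. The tallest bars are 66.7% at 51 to 100 genes on the centromere side for M1 and 47.8% at 1 to 25 genes on the telomere side for M2.

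The members differed more between polarizations than between genotypes, with a median absolute difference of 0.49 between M1 and M2 in wildtype cells against 0.12 and 0.16 between genotypes. The same held for all tested genes, at 0.43 against 0.09 and 0.07. Between wildtype M1 and M2 cells 39 of 48 passed, 9 higher in M1 (18.8%) and 30 lower (62.5%), against 78.6% of all genes, with 26.6% higher in M1 and 52.0% lower. In *Mirc11-/-* cells 36 passed, while 80.0% of all genes did. The members' totals were therefore near those of all genes. FPKM values were lower in M1 for most genes, with a median over all tested genes of -0.19 in wildtype and -0.21 in *Mirc11-/-* cells, and median-of-ratios scaling moved these medians to 0.01 and 0.02. Under that scaling the called members split 16 higher to 23 lower in wildtype, or 41.03% higher against 51.36% of all called genes. Without it these shares were 23.08% and 33.83%. *Nacc1*, *Dhps*, *Dnaja2* and *Brd7* changed sign in wildtype under that scaling. Quantile normalization gave 14 higher and 24 lower in wildtype, with *Nacc1* and *Orc6* changing sign. There too the share higher was smaller among called members than among all called genes. The 10 members named next kept their direction and their call under median-of-ratios scaling and quantile normalization.

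*Nod2* showed the largest rise in M1. It was at 9.56, 9.30 and 10.6 FPKM in wildtype M1 libraries and at 0.864, 0.666 and 0.838 FPKM in wildtype M2 libraries. The *Mirc11-/-* values were 11, 11 and 9.45 against 0.924, 0.799 and 1.01 FPKM. Every M1 library was above every M2 library, with a 12.5-fold higher mean in wildtype, and the differences were 2.60 (SE 0.08, adjusted p = 1.4e-11) and 2.59 (SE 0.08, adjusted p = 1.4e-11) by limma. *Zswim4* was 1.70 higher in wildtype M1 cells (SE 0.05) and 1.88 higher in *Mirc11-/-* M1 cells (SE 0.05). *Snx20*, a sorting nexin gene, was higher by 1.25 and 1.20 (SE 0.09 each), *N4bp1* by 1.24 and 0.87 (SE 0.06 each), and the heat shock co-chaperone gene *Dnajb1* by 0.73 and 0.65 (SE 0.07 each).

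Among the members that were lower in M1, *Dnase2a* was at 21.3, 22.2 and 18.2 FPKM in wildtype M1 libraries and at 113, 113 and 115 FPKM in wildtype M2 libraries. The *Mirc11-/-* values were 15.8, 17.3 and 18 against 104, 121 and 99.6 FPKM, so that M1 and M2 were far apart in both genotypes, by -2.42 and -2.60 (SE 0.08 each). The M1 minus M2 difference of *Cd97* was -2.31 in wildtype and -1.25 in *Mirc11-/-* cells (SE 0.09 each), that of *Lyl1* -2.07 and -1.94 (SE 0.06 each), that of *Man2b1* -1.84 in both (SE 0.05 each) and that of *Mri1* -1.47 and -1.51 (SE 0.06 each). Of these 5 genes, *Dnase2a* and *Man2b1* encode lysosomal hydrolases. *Prdx2* lay at -0.06 (SE 0.08) in wildtype and fell by 0.53 (SE 0.08, adjusted p = 6.9e-05) in *Mirc11-/-* cells.

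**Figure D5:**
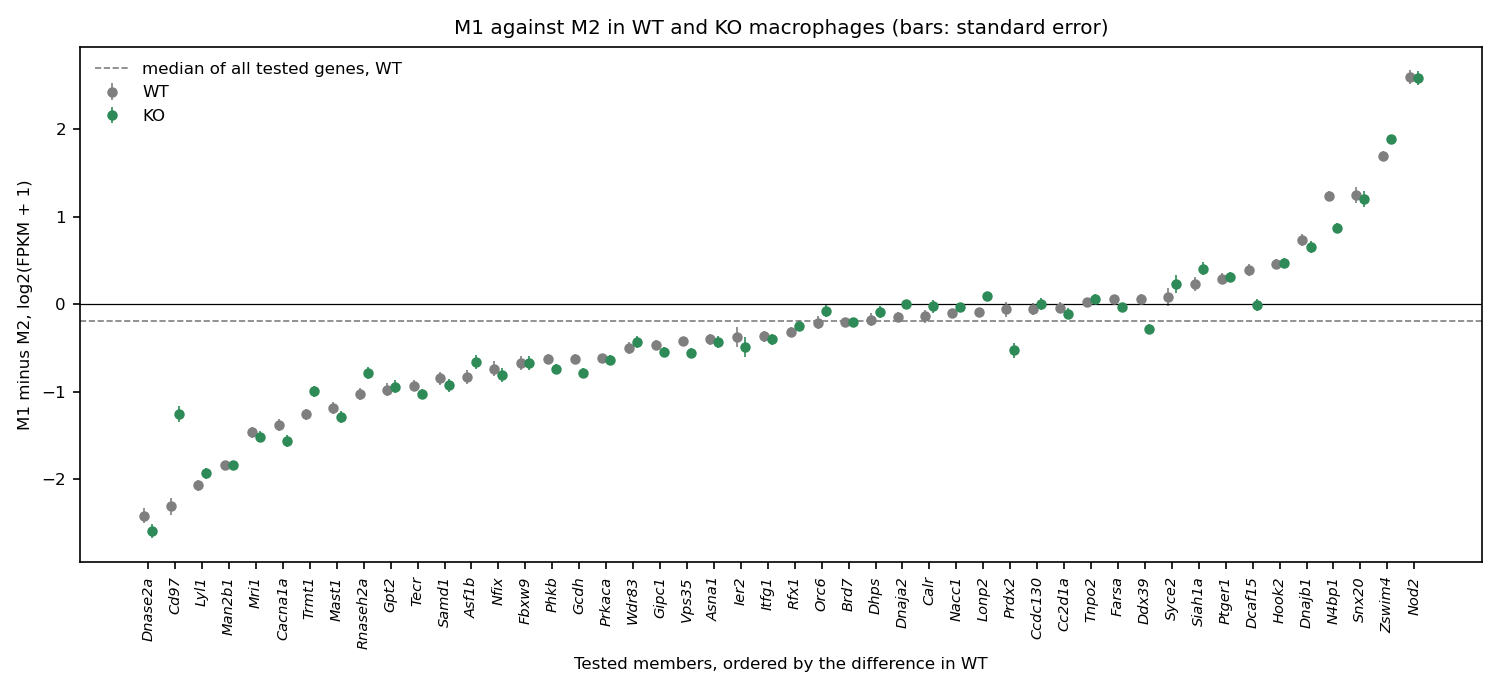
Difference between M1 and M2 macrophages for the 48 tested members in wildtype (WT, grey) and *Mirc11-/-* (KO, green) cells, in log2(FPKM + 1), ordered by the wildtype value, with standard errors as bars. The dashed line is the wildtype median of all tested genes, -0.19. The genotypes lie close together for most members. They lie farther apart for *Cd97* (-2.31 and -1.25), *Prdx2* (-0.06 and -0.53), *Dcaf15* (0.39 and -0.01) and *N4bp1* (1.24 and 0.87), among others.

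Promoter windows of 300 bases around the start of transcription, from RefSeq for GRCm38.p6, were matched to 38 of the 50 members, the first one where a gene had several, and searched on both strands. The cAMP response motif TGACGTCA was in *Fbxw9* and *Ccdc130* (5.26%; 1.88% of 27025 promoters), and an NF-kB motif in *Calr* and *Siah1a* (5.26%; 8.18%). The heat shock motif GAANNTTC was in 0 of the 38 windows (7.95% of promoters). The window of *Fbxw9* is shown because this gene was higher in *Mirc11-/-* cells in both polarizations and its window holds a motif, given in capitals. It lies at chr8:85059869-85060168 on the plus strand.
*Fbxw9*: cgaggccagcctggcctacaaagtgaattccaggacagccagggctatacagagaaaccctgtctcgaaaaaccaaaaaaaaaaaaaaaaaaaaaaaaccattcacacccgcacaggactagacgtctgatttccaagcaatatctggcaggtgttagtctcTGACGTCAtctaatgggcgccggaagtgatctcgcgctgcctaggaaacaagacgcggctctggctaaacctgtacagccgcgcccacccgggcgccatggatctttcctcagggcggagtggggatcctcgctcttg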

How the data were processed

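RNA sequencing of 12 macrophage libraries was analysed from the deposited table of FPKM values per gene. Per the labels, the authors aligned reads with STAR 2.5.1 to mm9, and FPKM came from Cufflinks; the annotation, strand setting and filters are not given in the sources used here. A pair of further deposited tables, which hold the authors' log2 fold changes and adjusted p-values per RefSeq transcript, were not used. Read counts were not used, so absolute depth is unknown, and relative depth was read from the steps between low FPKM values.

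Values were transformed as log2(FPKM + 1), which understates folds of weakly expressed genes. Genes with a mean of at least 1 FPKM were fitted with limma 3.58.1 (R 4.3.3) as 4 group means over all 12 libraries, with an intensity trend and two-sided tests, and p-values were adjusted by Benjamini-Hochberg over all tested genes at 0.05. The fit was tested on simulated data. Alternatives were a pseudocount of 0.1, no filter, median-of-ratios scaling, quantile normalization, each library left out, grouping by treatment label, the 6 libraries whose labels agree, fits to one polarization or genotype, and a replicate block on the title number. Named genes are the members called between genotypes, the 12 largest with every library, the 3 tested members nearest the cluster on each side, the 5 largest per direction between M1 and M2 in wildtype, those called for the difference and those under the filter. *Calr*, *Tnpo2*, *Prkaca* and the other uncalled members given with values were chosen after their values were seen. Members, lists and rule were chosen with earlier results of these data known. Gene order came from RefSeq for GRCm38.p6 and 3' UTRs from GENCODE, a build other than that of the files, so no positions of expressed genes are given. One overlapping gene and 1 promoter motif are not reported here.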

Additional observations from a re-analysis of the deposited data

Results flagged for a closer look

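The *Mirc11-/-* effects in M1 and M2 differed by limma's test of the difference for 2 members. For *Cd97* the difference of the effects (M1 minus M2) was 1.06 on the log2 scale, with *Mirc11-/-* libraries higher in 3 of 3 M1 and lower in 3 of 3 M2 comparisons with the wildtype range, and the call held without any 1 library (adjusted p from 0.0046 to 0.010). For *N4bp1* it was -0.37, and leaving out single libraries gave adjusted p from 0.017 to 0.098, with the call also lost under median-of-ratios scaling (0.051) and with the replicate block (0.068).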

How the results depend on the processing

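Grouping by the treatment label left 0 members called in each of the 5 comparisons by limma. These are the genotypes in M1 and M2, the difference, and M1 against M2 in wildtype and in *Mirc11-/-* cells. At an unadjusted limma p under 0.05 there were 6, 8, 0, 0 and 0 members. Of all 10137 tested genes, 2, 2, 0, 0 and 0 passed, and 337, 524, 446, 112 and 145 were under that unadjusted p. With this grouping 21 members had the same sign in M1 and M2 in place of 37. By label, wildtype M1 was Wt2260M1, Wt2261M2 and Wt2262M2, and *Mirc11-/-* M1 was Ako2271M1, Ako2272M1 and Ako2273M2. Every group by label thus mixed libraries titled M1 with libraries titled M2. Under that grouping these values turned direction without passing: in M1, *Cd97* to -0.79, *Zswim4* to 0.30 and *Lyl1* to -0.40; in M2, *Cd97* to 0.61, *Trmt1* to 0.28, *Man2b1* to 0.33, *Gpt2* to 0.096 and *N4bp1* to -0.32; and for the difference, *Cd97* to -1.40 and *N4bp1* to 0.81. The 6 libraries whose labels agree leave only Wt2260M1 and Wt2260M2 as wildtype libraries, so no calls are counted for them. In a fit to the M2 libraries alone 10 passed in M2. The difference passed for 1 member under median-of-ratios scaling and for 4 under quantile normalization. Leaving out single libraries gave 13 to 15 members in M1, 10 to 16 in M2 and 1 to 2 for the difference. In M1 the share of all tested genes then lay between 7.43% (without Ako2272M1, 13 members) and 15.0% (without Ako2272M2, 15 members). In M2 that share was 1.98% without Wt2261M2 (11 members) and 4.74% without Wt2261M1 (16 members). The replicate block on the title number gave 14 members in M1 (13.9% of all tested genes), 17 in M2 and 2 for the difference. It gave 38 and 36 for M1 against M2. For the difference, *Cd97* and *Dcaf15* then passed in place of *Cd97* and *N4bp1*. Same-numbered libraries correlated at -0.29 to 0.21 after group means were removed. With 3 libraries per group this cannot show whether the numbers pair the samples. Depth limits the members near or under the filter, for which only relative depth is known, and the causes of these changes were not tested.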
